A study of Mus musculus with 8 samples.

Results

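The 33 genes described here belong to the unfolded protein response of the endoplasmic reticulum and to the integrated stress response. They were taken by symbol from a list of the ATF4, ATF6 and XBP1 branches. The list sets no threshold on measured values, although it was drawn up with earlier results of these data known. All 33 had a row among the 41730 gene rows of the count table. Of those rows, 14589 had a count in at least 1 library. By role, 4 of the 33 genes encode stress sensors or XBP1, 9 encode regulators of the ATF4 and CHOP branch, 6 encode enzymes and a transporter of amino acid and one-carbon supply, 10 encode chaperones and folding enzymes, and 4 encode components of protein degradation from the endoplasmic reticulum.

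The samples were naive CD8+ T cells of the mouse, isolated with a magnetic kit and kept in culture for 24 h with either DMSO, the solvent control, or 2 µM RGX-104, a compound that activates the liver X receptors (LXR), the nuclear receptors for oxysterols. Each group had 4 libraries, named here DMSO libraries 1 to 4 and RGX-104 libraries 5 to 8. No strain, age, genetic change or stimulation is given in the labels, and it is not stated if replicate libraries trace to different animals or cultures. The p-values therefore rest on a spread that may be technical. The question posed by the design is which transcripts differ after the agonist.

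Proteins that enter the secretory pathway fold in the endoplasmic reticulum with the help of resident chaperones. When unfolded protein builds up there, the sensors PERK (Eif2ak3), IRE1 (Ern1) and ATF6 are released or activated. IRE1 splices the mRNA of XBP1, ATF6 is cut to free a transcription factor, and both factors induce chaperones and degradation genes. PERK phosphorylates the translation factor eIF2, which lowers protein synthesis while favouring translation of ATF4. Other eIF2 kinases that sense amino acid lack, haem or viral RNA feed into the same step, hence the name integrated stress response. In T cells these pathways are best known from activation, when secretory and biosynthetic load rises. Splicing of Xbp1, translation of Atf4 and cleavage of ATF6 are not visible in counts of transcript 3′ ends, so the values below report on transcript abundance only.

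Library totals ran from 16196217 to 28287445 counts. The unit of the levels below is CPM, a gene's count as a share of its library's total brought to a common size. The number of distinct molecules behind these reads was estimated at 182139 to 342244 per library, or 2.92 to 5.49 CPM for 1 molecule. By this estimate, a gene of a few CPM rested on a few molecules. It is an average and not a floor, and Trib3 was at 0.534 CPM in RGX-104 library 8. DMSO libraries 1 to 3 had the fewest genes detected, 9772 to 10194, against 10908 in DMSO library 4 and 10442 to 10990 in the RGX-104 libraries. The 10442 belonged to RGX-104 library 5, which had 113 reads per estimated molecule. DMSO libraries 1 to 3 had 97.2 to 115, and the remaining libraries 49.2 to 73.4. The LXR targets Abca1, Abcg1, Srebf1, Mylip and Scd2 were higher in every RGX-104 library than in every DMSO library, as the labels require. The 10 CD8 T cell markers summed to 3316 to 3573 CPM in DMSO and 3430 to 3918 CPM in RGX-104, with Cd2 listed at 0 in every library. T cells are known to express Cd2, so a gene at 0 is described below as listed at 0 and not as silent.

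None of the 33 genes passed the test for a difference between RGX-104 and DMSO. After a filter on low counts 27 could be tested, and the adjusted p (edgeR, Benjamini-Hochberg over 10037 genes) was 1.00 for every one of them. Across all genes tested, 11 were called, or 0.11%. At an unadjusted p under 0.05, edgeR had 1 of the 27, Pdia6, a share of 3.70% beside 3.81% of all genes tested. DESeq2 and limma-voom also called 0 of the 27, and each had 2 at an unadjusted p under 0.05, beside 6.79% and 6.65% of all genes tested. These were Hspa5 and Pdia6 with DESeq2, and Ddit3 and Phgdh with limma-voom.

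The fitted log2 fold changes of the 27 genes ran from -0.997 for Dnajb9 to 1.08 for Hyou1, with 19 above 0 and 8 below. Their median was 0.26, beside 0.01 over all genes tested. Against DMSO library 4 alone, the control library whose number of genes detected lay within the treated range, the median was 0.08, beside 0.13 over all genes. With detected genes as a covariate it was 0.05, beside 0.02. The surplus of positive values was thus not carried by every way of comparing the libraries.

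What the test did bound, given a spread between libraries that may be technical, was the size of a change in the better measured genes. The 11 genes with a mean of 50 CPM or more each had a 95% interval that lay within 1 log2 unit of 0, the size of a 2-fold change in either direction. They were Hspa5, Calr, Hsp90b1, Dnajc3 and Pdia6 among the folding genes, Atf4, Ddit4 and Ppp1r15a among the regulators, the enzyme gene Shmt2, and Edem1 and Sel1l in degradation. At 50 CPM or more such an interval was usual, and 3047 of the 3550 genes tested at that level had one. Of the 11 genes of the list, all but Ddit4 had a fold change above 0, or 90.9%, beside 51.5% of all genes at that level. Of the 16 less abundant genes tested, 1, Manf, had an interval that narrow. The plot of fold changes with their intervals shows this difference in precision.

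**Figure D1:**
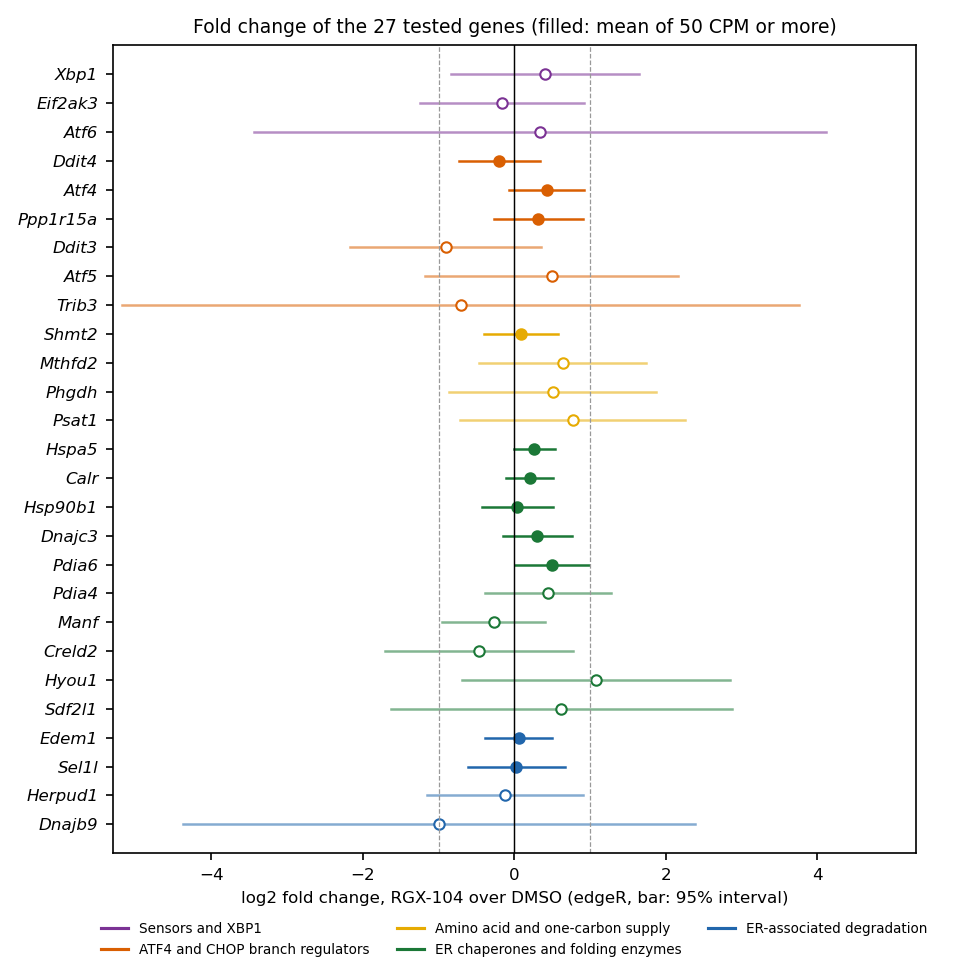
Fitted log2 fold change of RGX-104 over DMSO for the 27 tested genes (points, edgeR) with 95% intervals (bars), grouped and coloured by role, filled where the mean was 50 CPM or more and with dashed lines at a 2-fold change. All 11 filled points have intervals between the dashed lines, while those of Trib3, Dnajb9 and Atf6 are the widest, and only the interval of Pdia6 leaves out 0.

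The sensors were measured at low levels. Eif2ak3, which encodes PERK, was measured at 18.1, 15.4, 41.6 and 41.1 CPM in DMSO libraries 1 to 4 and at 10.7, 24.2, 36.0 and 32.7 CPM in RGX-104 libraries 5 to 8. The groups overlapped over most of their range, and the fitted log2 fold change was -0.17. Atf6 had 14.9, 0, 0 and 7.62 CPM in DMSO and 1.38, 9.21, 11.6 and 6.29 CPM in RGX-104. Its zeros fell in DMSO libraries 2 and 3, which were among those with few genes detected. Ern1, which encodes IRE1, was listed at 0 in 7 libraries and at 8.12 CPM, or 137 reads, in RGX-104 library 8, and could not be tested.

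Xbp1, the transcription factor whose mRNA IRE1 splices, was the most abundant gene of this group and was uneven between libraries. Its level was 48.1, 69.6, 5.07 and 21.6 CPM in DMSO against 51.8, 51.8, 74.2 and 13.0 CPM in RGX-104. DMSO library 3 was the lowest and RGX-104 library 8 the lowest of its own group, and the highest libraries of the groups were close to each other. The fitted log2 fold change was 0.40 with a 95% interval from -0.84 to 1.65. It was 0.035 without DMSO library 3, 1.15 against DMSO library 4 alone and 1.27 with detected genes as a covariate. Counts at the 3′ end cover the spliced and the unspliced form alike.

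Among the regulators of the ATF4 and CHOP branch, Atf4 itself, the transcription factor at the centre of the integrated stress response, was well measured. Its level was 117, 72.4, 167 and 96.5 CPM in DMSO and 149, 130.2, 189 and 141 CPM in RGX-104. All 4 RGX-104 libraries lay above 3 of the 4 DMSO libraries, with DMSO library 3 inside the treated range. The mean went from 113 ± 40.3 to 152 ± 25.9 CPM (SD, n = 4 per group), a fitted log2 fold change of 0.43 ± 0.24 (SE) with a 95% interval from -0.07 to 0.92. The unadjusted edgeR p was 0.0862. The value depended on single control libraries, being 0.26 without DMSO library 2 and 0.67 without DMSO library 3, and no adjusted p passed in either case. Atf4 lies on chromosome 15 from 80255184 to 80257545 (RefSeq, GRCm38.p6).

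Genes that ATF4 is known to induce gave no common direction. The 4 tested genes of amino acid and one-carbon supply, described below, all had fold changes above 0. Of 19 ATF4 targets tested outside the list, 9 were above 0 and 10 below. Ddit3 encodes CHOP, a transcription factor tied to cell death under lasting stress. It was at 38.6, 30.6, 24.3 and 17.1 CPM in DMSO and at 4.24, 12.1, 22.6 and 19.98 CPM in RGX-104. Every RGX-104 library lay below DMSO libraries 1 to 3, while DMSO library 4 lay among the treated ones. The fitted log2 fold change was -0.91 with a 95% interval from -2.17 to 0.35, and -0.21 against DMSO library 4 alone. Ddit3 was thus on the other side of 0 from Atf4.

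Ppp1r15a encodes GADD34, the phosphatase subunit that reverses eIF2 phosphorylation. Its level was 77.1, 34.6, 76.8 and 79.1 CPM in DMSO and 88.3, 71.6, 86.2 and 87.0 CPM in RGX-104. DMSO library 2 was far below the other controls, which were close to one another. The fitted log2 fold change was 0.32 ± 0.28 (SE), and 0.10 without DMSO library 2. Ddit4, an inhibitor of the growth kinase mTORC1, was at 198, 95.2, 99.4 and 176 CPM in DMSO and at 117, 175, 103 and 99.5 CPM in RGX-104. Both groups held libraries below 100 CPM and a library of 175 CPM or more, and the log2 fold change was -0.20 ± 0.26 (SE).

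The remaining regulators were near or at the limit of counting. Atf5, a relative of ATF4, had 4.37, 5.93, 17.7 and 20.4 CPM in DMSO and 27.5, 9.63, 23.4 and 7.35 CPM in RGX-104. An exon of Atf5 overlaps an exon of Nup62 on the other strand over 82 bases. The mean level of Nup62 was 106 CPM in DMSO against 115 CPM in RGX-104. Without a stated strand setting, reads within the shared bases cannot be assigned to 1 of the genes. How many Atf5 reads lie there was not tested. Trib3, a pseudokinase that restrains ATF4 and CHOP, had 3.28, 12.5, 0 and 11.0 CPM in DMSO and 0, 0, 15.8 and 0.534 CPM in RGX-104. The largest Trib3 value was thus in a treated library, and most treated libraries had almost none. Atf3, a stress-induced factor, was listed at 1.39 CPM in DMSO library 4 and at 0 elsewhere. Sesn2, a leucine sensor upstream of mTORC1, and Chac1, which degrades glutathione, were listed at 0 in all 8 libraries.

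The genes of amino acid and one-carbon supply are ATF4 targets that feed serine, glycine and folate units into biosynthesis. Shmt2, the mitochondrial serine hydroxymethyltransferase, was measured at 67.3, 126, 109.9 and 127 CPM in DMSO and at 103, 136, 128 and 89.3 CPM in RGX-104. The groups covered much the same range, with a log2 fold change of 0.09 ± 0.24 (SE). Phgdh, the first enzyme of serine synthesis, was at 26.4, 28.5, 1.51 and 21.4 CPM in DMSO and at 29.2, 19.4, 29.9 and 31.8 CPM in RGX-104. Apart from DMSO library 3, every library lay between 19.4 and 31.8 CPM.

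Psat1, the next enzyme of that route, had 29.0, 12.5, 2.62 and 16.4 CPM in DMSO and 10.9, 55.8, 19.2 and 17.2 CPM in RGX-104. Mthfd2, a mitochondrial folate enzyme, had 22.3, 39.4, 9.56 and 18.4 CPM in DMSO and 15.97, 61.7, 27.9 and 33.7 CPM in RGX-104. DMSO library 3 was the lowest of all 8 libraries for Phgdh, Psat1 and Mthfd2, and RGX-104 library 6 was the highest for Psat1, Mthfd2 and Shmt2. The median log2 fold change of the 4 tested genes of this group was 0.57, and it was 0.25 without DMSO library 3 and 0.13 without RGX-104 library 6. Asns, the asparagine synthetase and a standard reporter of ATF4 activity, was listed at 0 in all 8 libraries. Slc7a11, the cystine importer, had 0, 7.76, 12.9 and 0 CPM in DMSO and 0, 0, 7.13 and 0 CPM in RGX-104 and was below the filter.

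ATF4 binds with CEBP partners to an element that was searched in the form TTGCATCA on both strands, in RefSeq promoter windows (GRCm38.p6) that run from 250 bases before a start site to 50 bases after it. A window was found for 30 of the 33 genes, and 4 of these, Atf3, Chac1, Slc7a11 and Herpud1, held the element, beside 1.03% of 27025 genes with a window. The related form TGATGNAAT was in 0 of the 30 and in 1.08% of all. The sequences are shown because 3 of the 4 genes, Atf3, Chac1 and Slc7a11, were among those that could not be tested here. Each is printed 5′ to 3′ on the strand that reads the element forward, with the element in capitals. Slc7a11 holds it once on each strand, of which 1 is printed.
Atf3 (chr1:191183416-191183463, minus strand): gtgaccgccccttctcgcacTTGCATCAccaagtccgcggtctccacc
Chac1 (chr2:119351029-119351076, plus strand): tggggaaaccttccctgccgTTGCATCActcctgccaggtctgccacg
Slc7a11 (chr3:50443652-50443699, plus strand): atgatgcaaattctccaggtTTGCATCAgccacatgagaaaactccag
Herpud1 (chr8:94386297-94386344, plus strand): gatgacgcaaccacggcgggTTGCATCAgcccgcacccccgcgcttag

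The chaperones and folding enzymes held the most abundant genes of the list. Of the 10, 8 had a fold change above 0, or 80%, beside 50.9% of all genes tested. The median log2 fold change of the 10 was 0.28, beside 0.01 over all genes tested. It was 0.30 against DMSO library 4 alone, beside 0.13 over all genes, and 0.25 with detected genes as a covariate, beside 0.02. Leaving out each library in turn gave medians from 0.21 to 0.34. Summed over the 10 genes, the level was 986 to 1117 CPM in DMSO and 1110 to 1314 CPM in RGX-104, with DMSO library 4 above the lowest treated library. None of the 10 was called. The plot of levels by library shows the position of these genes in the list.

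**Figure D2:**
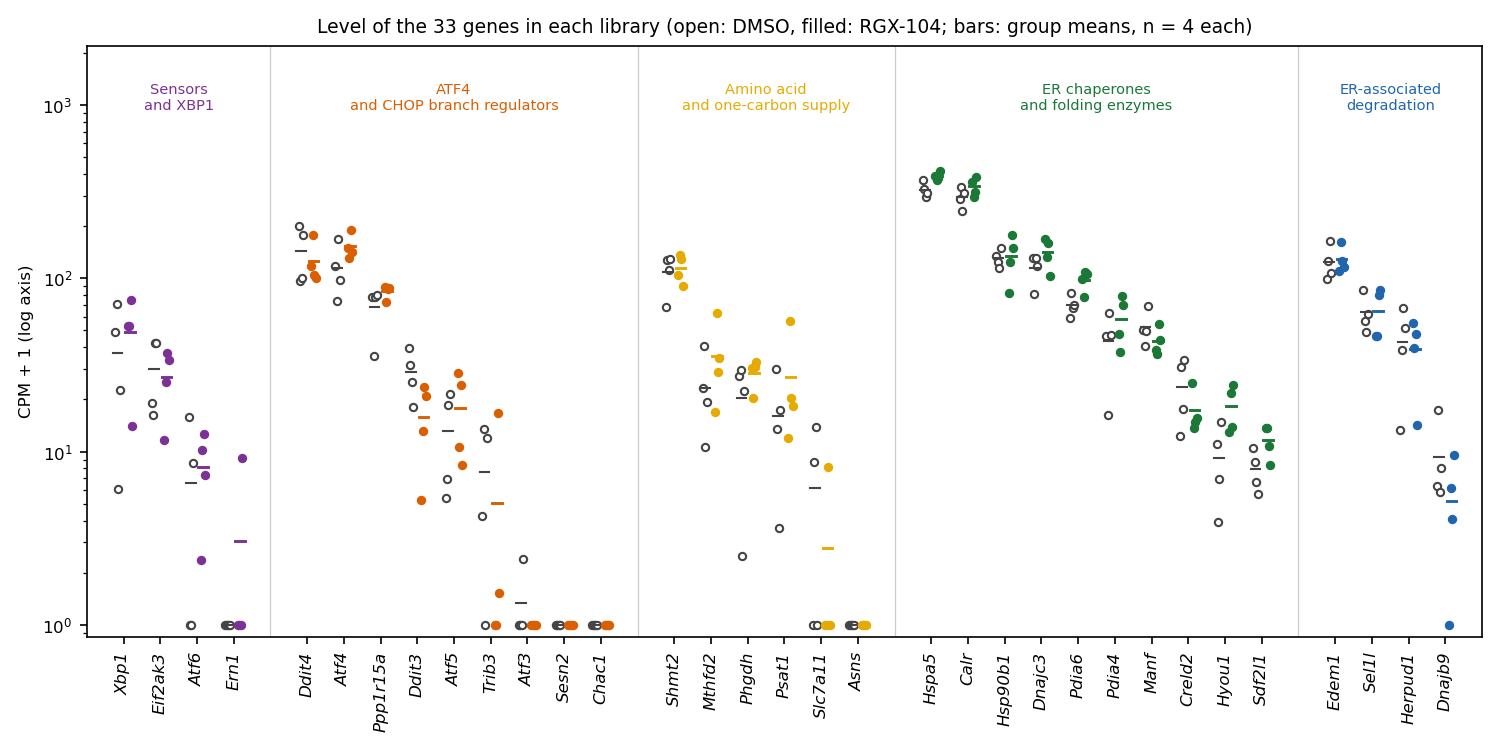
Level of each of the 33 genes as CPM + 1 on a log axis, grouped by role, with open points for the DMSO libraries, filled points for the RGX-104 libraries and bars for the group means (4 libraries each). Hspa5 and Calr are the highest genes, Hspa5 alone has all filled points above all open ones, and Sesn2, Chac1 and Asns lie on the floor in every library.

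Hspa5 encodes BiP, the chaperone that holds the sensors inactive and the classic target of the unfolded protein response. Its level was 366, 325, 294 and 309 CPM in DMSO and 389, 367, 379 and 416 CPM in RGX-104. It was the 1 gene of the 33 whose groups did not overlap, by 366.3 CPM in DMSO library 1 against 367.4 CPM in RGX-104 library 6. Over all genes tested, 2.08% had every RGX-104 library above every DMSO library and 1.49% had every one below, and 0 of the 33 genes were of the latter kind. With RLE size factors in place of TMM the groups of Hspa5 overlapped. The mean went from 324 ± 31.3 to 388 ± 20.9 CPM (SD, n = 4 per group), a log2 fold change of 0.26 ± 0.13 (SE) with a 95% interval from -0.01 to 0.53. The unadjusted edgeR p was 0.0583, and the fold change stayed between 0.21 and 0.33 under every alternative run. Hspa5 lies on chromosome 2 from 34772090 to 34776529.

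Pdia6, a disulfide isomerase that also acts on the sensors, was at 58.3, 80.6, 66.6 and 69.1 CPM in DMSO and at 97.7, 76.9, 108 and 104 CPM in RGX-104. RGX-104 library 6 lay below DMSO library 2, and the other treated libraries lay above all controls. The mean went from 68.7 ± 9.21 to 96.7 ± 13.9 CPM (SD, n = 4 per group), and the log2 fold change was 0.49 ± 0.23 (SE) with a 95% interval from 0.01 to 0.98. The unadjusted edgeR p was 0.0470, which did not survive adjustment over all genes. Its fold change stayed between 0.42 and 0.58 under every alternative run. Pdia6 lies on chromosome 12 from 17266589 to 17284785.

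Calr, the lectin chaperone calreticulin that also stores calcium, was at 286, 334, 244 and 309 CPM in DMSO and at 359.5, 293, 313 and 384 CPM in RGX-104. The groups overlapped and the log2 fold change was 0.20 ± 0.15 (SE). Dnajc3, a co-chaperone of BiP and inhibitor of PERK, was at 129, 79.8, 129 and 117 CPM in DMSO and at 167, 132, 159 and 103 CPM in RGX-104, with a log2 fold change of 0.30 ± 0.22 (SE). In both genes 1 or more treated libraries lay inside the control range.

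Hsp90b1, which encodes the chaperone GRP94, was at 133, 123, 114 and 148 CPM in DMSO and at 81.6, 123, 177 and 149 CPM in RGX-104. Its treated libraries spread on both sides of the controls, and the log2 fold change of 0.04 ± 0.22 (SE) was below 0 under several alternatives. An exon of Hsp90b1 overlaps that of an antisense pseudogene of 11.5 CPM in DMSO. On the same strand, its exons overlap Gm15344 over 84 bases and Gm25745 over 133 bases, neither of which was tested. The 3 abundant chaperones Hspa5, Calr and Hsp90b1 are thought of as induced together, and here their fold changes were 0.26, 0.20 and 0.04.

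The less abundant folding genes were uneven. Pdia4, another disulfide isomerase, had 45.3, 15.3, 61.8 and 46.2 CPM in DMSO and 46.8, 36.7, 77.6 and 69.0 CPM in RGX-104. Hyou1, a large chaperone that exchanges nucleotide on BiP, had 10.1, 2.91, 5.97 and 13.7 CPM in DMSO and 11.9, 20.9, 12.9 and 23.4 CPM in RGX-104. Its log2 fold change of 1.08 was the largest of the list, with a 95% interval from -0.69 to 2.84, and it was 0.34 against DMSO library 4 alone. Sdf2l1, part of a BiP cofactor complex, had 4.73 to 9.52 CPM in DMSO and 7.41 to 12.7 CPM in RGX-104.

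The folding genes Creld2 and Manf, both secreted under stress, had fold changes below 0. Creld2 had 11.3, 29.7, 16.7 and 32.8 CPM in DMSO and 24.0, 12.8, 13.9 and 14.6 CPM in RGX-104. Manf had 49.6, 39.4, 48.5 and 67.7 CPM in DMSO and 37.4, 35.6, 53.8 and 43.0 CPM in RGX-104. Their log2 fold changes were -0.47 and -0.27, with overlapping groups in each. In the GENCODE annotation, exons of Manf overlap exons of Dcaf1 over 146 bases and of Rbm15b over 14 bases. Both had higher levels than Manf, whose count may hold reads of theirs, which was not tested. Manf runs from 106838312 to 106891979 in GENCODE and from 106888753 to 106891938 in RefSeq. The annotation used in counting is not given.

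Plasma cells are known to be rich in these chaperones, so markers of some other cell types that the isolated cells could hold were summed as well. Sums for CD4 and regulatory T cells, dendritic cells, NK cells, neutrophils and erythroid cells had overlapping ranges in DMSO and RGX-104. The 8 plasma cell markers summed to 0 to 31.0 CPM in DMSO and to 14.4 to 47.0 CPM in RGX-104, with Tnfrsf17 listed at 0 throughout. The B cell markers summed to 36.5 to 202 CPM and 111 to 161 CPM, and those of macrophages and monocytes to 11.3 to 31.0 CPM and 8.05 to 24.1 CPM, with Fcgr3, C1qa, C1qb and Mrc1 listed at 0. The part of such cells in the folding values was not tested. In bulk RNA, fewer cells of a type and less RNA per cell cannot be told apart.

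ATF6 and XBP1 act on the endoplasmic reticulum stress element, which is CCAAT, then 9 bases, then CCACG. It was found in the promoter windows of 6 of the 30 genes with a window, and in 37 of the 27025 genes with one, or 0.137%. All 6 were folding genes, namely Hspa5, Hsp90b1, Calr, Pdia6, Dnajc3 and Creld2. The XBP1 and ATF6 box TGACGTGG was in 0 of the 30 windows and in 0.714% of all. A match here is a description of letters and not evidence of binding, and windows for Atf6, Hyou1 and Manf were not used here. The sequences are shown because the element was found in all 5 folding genes with a mean of 50 CPM or more, and in Creld2. For Hspa5 the 250 bases before the start site are printed, in which CCAAT occurs 4 times over both strands and CCACG occurs 1 time. The others are printed with 20 bases on each side, on the strand that reads the element forward, 5′ to 3′, with the fixed letters in capitals.
Hspa5 (chr2:34771840-34772089, plus strand): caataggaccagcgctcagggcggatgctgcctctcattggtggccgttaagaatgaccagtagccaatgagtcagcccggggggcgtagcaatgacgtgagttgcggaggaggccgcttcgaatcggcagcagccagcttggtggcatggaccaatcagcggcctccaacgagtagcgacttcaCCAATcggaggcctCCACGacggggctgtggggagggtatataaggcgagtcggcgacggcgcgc
Pdia6 (chr12:17266471-17266529, plus strand): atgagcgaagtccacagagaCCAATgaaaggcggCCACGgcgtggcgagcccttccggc
Dnajc3 (chr14:118937807-118937865, plus strand): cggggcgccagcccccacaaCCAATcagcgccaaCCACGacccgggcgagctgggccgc
Calr (chr8:84847055-84847113, plus strand): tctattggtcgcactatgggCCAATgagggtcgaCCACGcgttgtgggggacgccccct
Hsp90b1, copy nearer the start site (chr10:86705513-86705571, plus strand): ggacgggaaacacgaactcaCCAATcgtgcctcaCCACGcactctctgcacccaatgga
Hsp90b1, copy farther from it (chr10:86705618-86705676, minus strand): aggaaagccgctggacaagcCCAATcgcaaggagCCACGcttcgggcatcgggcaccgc
Creld2 (chr15:88819500-88819558, minus strand): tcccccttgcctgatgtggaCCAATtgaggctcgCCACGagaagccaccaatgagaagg

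The element lay between -65 and -47 relative to the start site in Hspa5, and between -98 and -80 in Pdia6. It was oriented with the gene in Hspa5, Pdia6 and Dnajc3 and against it in Calr and Creld2, while Hsp90b1 has 1 copy of each kind. The median log2 fold change of the 6 genes was 0.23, with Creld2 alone below 0. Of genes outside the list that hold the element, 8 were tested, with 4 above 0, 4 below, a median of -0.01 and none called by edgeR (0 also at an unadjusted p under 0.05).

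The degradation genes were centred on 0. Edem1, a lectin that draws misfolded glycoproteins out of the folding cycle, was at 98.1, 124, 162 and 106 CPM in DMSO and at 109, 161, 124 and 115 CPM in RGX-104. Sel1l, the scaffold of the HRD1 ubiquitin ligase, was at 84.96, 55.9, 48.0 and 61.3 CPM in DMSO and at 45.3, 45.6, 79.4 and 84.6 CPM in RGX-104. The log2 fold changes were 0.06 ± 0.21 for Edem1 and 0.03 ± 0.30 for Sel1l (SE), and in both genes the 2 groups covered nearly the same range.

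Herpud1, a membrane component of the degradation complex, had 12.3, 37.5, 66.5 and 50.7 CPM in DMSO and 54.4, 38.6, 46.5 and 13.2 CPM in RGX-104. Each group had 1 library far below its others, at 12.3 and 13.2 CPM. Dnajb9, a co-chaperone that represses IRE1 and a sensitive target of XBP1, had 5.304, 16.3, 4.86 and 6.99 CPM in DMSO and 0, 5.14, 3.07 and 8.54 CPM in RGX-104. The highest Dnajb9 value was in a control library and the lowest in a treated one, and the log2 fold change of -0.997 had a 95% interval from -4.38 to 2.39.

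The spread between libraries followed the level of a gene, as the plot of spread against level shows. Hspa5 had a coefficient of variation of 9.66% in DMSO and 5.39% in RGX-104. The 8 genes at 100 CPM or more had medians of 21.97% and 18.6% in the 2 groups, beside 17.7% and 13.6% over all genes at that level. The 12 genes between 10 and 50 CPM had medians of 55.4% and 45.2%, beside 49.9% and 39.6%. Ddit4 at 37.0% and 28.4% and Atf4 at 35.6% and 17.04% were the least even of the abundant genes in DMSO, while Ppp1r15a went from 32.2% in DMSO to 9.41% in RGX-104, with DMSO library 2 far below the other controls.

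**Figure D3:**
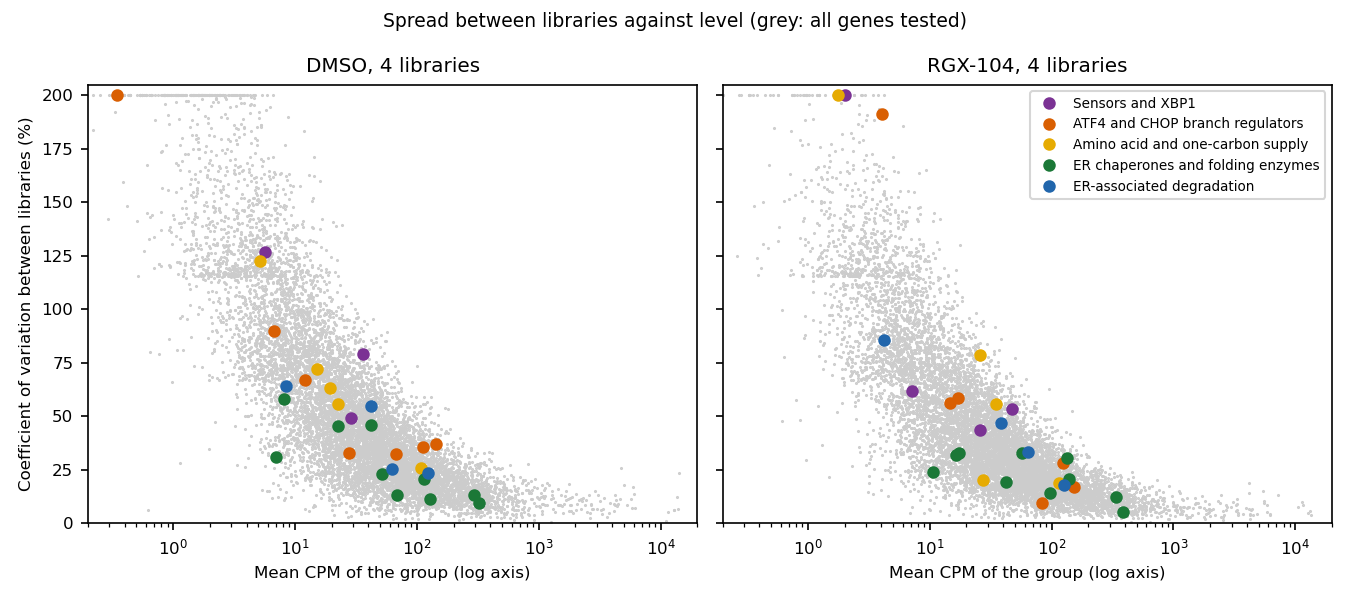
Coefficient of variation over the 4 libraries of a group (vertical axis, in percent) against the group's mean CPM (horizontal log axis), with DMSO on the left, RGX-104 on the right, all tested genes in grey and the list coloured by role. The coloured points lie within the grey cloud, from 5.39% for Hspa5 in RGX-104 up to genes counted in 1 library of 4, which lie on the upper edge.

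Beyond the 33 genes, 113 other genes of these pathways had a row and 94 could be tested, in lists that were chosen with earlier results of these data known. None was called by edgeR, and 4 had an unadjusted p under 0.05, or 4.26% beside 3.81% of all genes tested. Fold changes above 0 numbered 46 and those below 48, and their median was -0.01, so that these genes as a whole were centred on 0. Among them were 16 other folding genes, with 6 above 0 and a median of -0.11, unlike the 0.28 of the 10 folding genes of the list; the difference between the lists was not tested.

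The 4 genes were Dnajb11, Ube2j2, Ssr3 and Ppib. Ube2j2, a ubiquitin-conjugating enzyme of the endoplasmic reticulum membrane, was at 72.1, 47.6, 78.7 and 69.0 CPM in DMSO and at 127, 80.6, 115 and 123 CPM in RGX-104. Its RGX-104 libraries all lay above its DMSO libraries, a pattern seen in 3 of the 94 genes and in 2.08% of all genes tested. The other 2, Eif2b2 and Sec61a1, are named here after their values were seen. The log2 fold change was 0.73 ± 0.24 (SE) with an unadjusted edgeR p of 0.00666. Ssr3, part of the translocon, went from a mean of 33.6 ± 12.7 to 58.8 ± 16.4 CPM, and Ppib, a prolyl isomerase that works with chaperones, from 129 ± 20.1 to 88.7 ± 19.1 CPM (SD, n = 4 per group).

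Dnajb11, a co-chaperone of BiP, was at 36.3, 26.6, 31.2 and 124 CPM in DMSO and at 129, 93.6, 95.1 and 89.8 CPM in RGX-104. DMSO library 4 lay with the treated libraries and far above the other controls. The log2 fold change was 0.91 ± 0.39 (SE) with all libraries. It was 1.69 without DMSO library 4, where it passed (edgeR with Benjamini-Hochberg adjustment, adjusted p = 0.0188), and -0.27 against DMSO library 4 alone. The control libraries 1 to 3 that were low in Dnajb11 were also those with the fewest genes detected, and its fold change was 0.47 on the log2 scale with detected genes as a covariate.

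Of the most abundant genes of the neighbouring lists, none had an unadjusted p under 0.05 by edgeR. Eif2s2, a subunit of eIF2, had a log2 fold change of -0.06 ± 0.11, Tmbim6, a membrane protein that restrains IRE1, of 0.09 ± 0.12, and Slc38a2, an ATF4-induced amino acid transporter, of 0.09 ± 0.15 (SE). Sec62 of the translocon had -0.14 ± 0.14 and Vcp, the ATPase that pulls proteins out for degradation, 0.07 ± 0.16 (SE). Rtcb, the ligase that rejoins Xbp1 mRNA after IRE1 has cut it, was at 169 ± 21.2 CPM in DMSO against 209 ± 17.7 CPM in RGX-104 (SD, n = 4 per group), a log2 fold change of 0.31 ± 0.16 (SE). The plot of all lists sets these groups side by side.

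**Figure D4:**
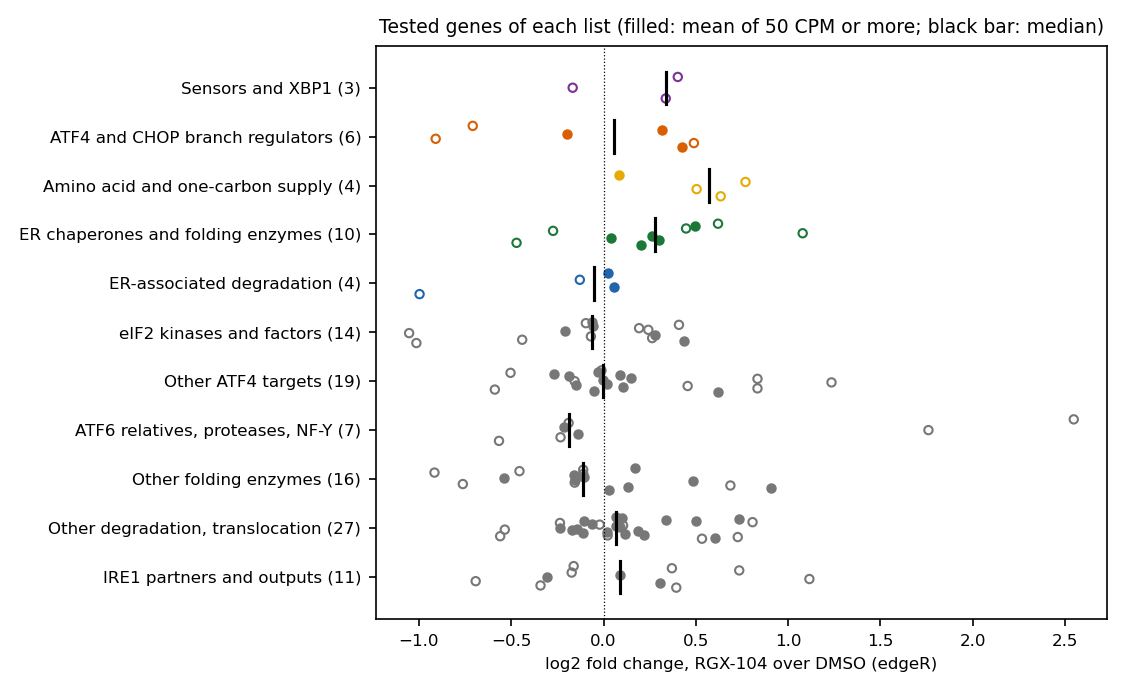
Fitted log2 fold change of RGX-104 over DMSO for each tested gene of the 5 groups of the list (coloured) and of the 6 lists of other pathway genes (grey), with the number tested in parentheses, black bars for medians and filled points for means of 50 CPM or more. The median is 0.28 for the folding genes of the list and -0.11 for the other folding genes, and the values farthest from 0 in each direction are open points.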

How the data were processed

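The deposited values were presumed, from the file name, to be unnormalized counts of reads for each gene. The file headers give a column for every library. RNA was read from transcript 3′ ends with a QuantSeq kit, per the labels' protocols. The submitters' processing notes name STAR 2.7.8a, R 4.1.0, DESeq2 1.4 and GRCm38 but do not say which step used them. How reads were counted, on which annotation and strand, and whether molecular identifiers were used is not given in the sources used here. Reads may thus be PCR copies. Reads from bases that genes share, or from near-identical copies, cannot be told apart.

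The test was edgeR's quasi-likelihood test (edgeR 4.0.16, R 4.3.3) with TMM scaling and group as the only term, after filterByExpr with a minimum count of 10, which kept 10037 genes. P-values were adjusted by Benjamini-Hochberg over those genes and called under 0.05. The standard error is the log2 fold change divided by the root of the F statistic, and 95% intervals use its degrees of freedom. CPM use TMM-scaled totals and carry no length correction, since a 3′ count is 1 fragment per transcript. Apparent molecules are the number that gives the observed share of zeros, under Poisson sampling, among genes of 2 to 20 CPM in the other libraries. The edgeR fit was run on simulated counts drawn with its own fitted dispersions. This does not test how it behaves on reads that are PCR copies. The estimate of molecules was not run on simulated counts. Between library pairs, chi-square per degree of freedom on reads was 68.6 to 194, where 1 library read again would give about 1, so none was treated as a duplicate deposit. With 49.2 to 115 reads per apparent molecule, this does not show whether libraries came from different RNA.

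Alternatives were RLE size factors, DESeq2 1.42.0, limma-voom (limma 3.58.1), no filter, robust dispersion, genes detected as a covariate, DMSO library 4 alone as control, and each library left out. The 33 genes, their groups and the other lists were chosen with earlier results of these data known. All 33 may be named, with full statistics at a mean of 50 CPM or more or an unadjusted p under 0.05. Of other pathway genes, those with such a p and the 2 most abundant per list may be named. Positions and promoter windows are from RefSeq (GRCm38.p6), and exon overlaps from a GENCODE annotation of GRCm38. Beside the overlaps given above, exons of Eif2ak3, Ppp1r15a, Shmt2, Pdia4, Pdia6 and Dnajb9 overlap exons of genes that were not tested.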

Additional observations from a re-analysis of the deposited data

Results flagged for a closer look

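In 9 of 66 groups of 4 libraries examined, 1 library lay far from the other 3 relative to the range of its group. Chance would give about 3.3 if the values were normally distributed, which low counts are not. A gene counted in only 1 library of a group is always flagged, so the 9 cannot be weighed against the 3.3. Among the well measured genes, Ppp1r15a was at 34.6 CPM in DMSO library 2 beside 76.8 to 79.1 CPM in the other controls, and at 71.6 CPM in RGX-104 library 6 beside 86.2 to 88.3 CPM in the other treated libraries. Dnajb11 was at 123.6 CPM in DMSO library 4 beside 26.6 to 36.3 CPM, and at 128.8 CPM in RGX-104 library 5 beside 89.8 to 95.1 CPM. Creld2 was at 24.02 CPM in RGX-104 library 5 beside 12.8 to 14.6 CPM. The other 4 were genes counted almost only in 1 library of a group, namely Ern1 at 8.12 CPM in RGX-104 library 8, Atf3 at 1.39 CPM in DMSO library 4, and Trib3 at 15.8 CPM and Slc7a11 at 7.13 CPM in RGX-104 library 7.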

How the results depend on the processing

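None of the 27 tested genes was called under any of the 15 alternatives, with a lowest adjusted p of 0.43, and 17 kept the sign of their fold change in all of them. The number at an unadjusted p under 0.05 (1 by edgeR) was 0 with RLE size factors, 0 with a robust dispersion, 0 with the genes detected as a covariate, 2 with DESeq2 and 2 with limma-voom, and 0 to 1 when 1 library was left out. Over all genes, DESeq2 called 33 and the fit with the covariate 7, where edgeR called 11. The median log2 fold change of 0.26 was 0.054 with the covariate, 0.083 against DMSO library 4 alone, and 0.11 to 0.22 with a library left out, being 0.12 without DMSO library 3 and 0.11 without RGX-104 library 7. The number of genes whose groups did not overlap (1, Hspa5) was 0 with RLE size factors, 10 against DMSO library 4 alone, where 39.6% of all genes did not overlap, and 1 to 4 with a library left out, where 5.92% to 7.89% of all genes did not overlap.

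Some fold changes crossed 0. With limma-voom they were -0.079 for Hsp90b1 and -0.066 for Sel1l. With the covariate they were -0.59 for Atf6, -0.23 for Hsp90b1, -0.035 for Pdia4 and -0.14 for Sel1l. Against DMSO library 4 alone they were -0.10 for Atf6, -0.25 for Atf5, -0.15 for Shmt2, -0.15 for Hsp90b1 and -0.27 for Dnajb11. With each library left out in turn the ranges were -0.42 to 0.0019 for Ddit4, -0.086 to 0.18 for Shmt2, -0.082 to 0.22 for Edem1, -0.085 to 1.48 for Atf6, -0.14 to 0.21 for Sel1l, -0.38 to 0.088 for Eif2ak3, -0.13 to 0.21 for Hsp90b1 and -0.43 to 0.19 for Herpud1. The cause was not tested. Fits with 1 control library assume that it varies like the treated ones. No paired analysis was possible because the library numbers are unique across the groups. By the estimate of molecules, which was not tested, 1 molecule was worth 2.92 to 5.49 CPM, so genes of a few CPM are given with that limit.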
